A study of Mus musculus with 15 samples.

Results

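Light zone germinal centre B cells that carry much of the surface activation marker CD69 (Fraction 2) were compared with light zone cells that carry little of it (Fraction 3). Both fractions were sorted as Bcl6-high, and the comparison takes 3 libraries of each, 6 of the 15 libraries of the series. All genes with a value above 0 in at least 3 of the 15 libraries were tested, which left 11190 of the 23420 genes in the table. The cells were offspring of transferred mouse B cells with a B1-8hi knock-in, an antibody heavy chain that gives high affinity for the hapten NP, and a Bcl6-YFP reporter knock-in. Each knock-in was on 1 allele (KI/+), on a C57BL6 background. The C57BL6 recipients, which keep their own B cells, were immunized with NP-CGG in CFA, and on day 12 the transferred cells were sorted from draining lymph nodes by their CD45.1. Fraction 2 was B220+ CD45.1+ CD38lo GL7hi CXCR4lo CD86hi CD69hi Bcl6hi, and Fraction 3 differed from it only in being CD69lo. The other 3 groups were dark zone cells (DZ, CXCR4hi CD86lo, not gated on CD69 or Bcl6), light zone cells with low Bcl6 and high CD69 (Fraction 1), both with the same 2 knock-ins, and germinal centre derived plasmablasts (GC-PB). The plasmablasts were CD45.1+ CD138hi CD44hi tdTomato+ cells from B1-8hi (KI/+) donors with an S1pr2-ERT2cre transgene and the Ai14 reporter, and their recipients received tamoxifen on days 6, 7 and 8. Each library came from 100 sorted cells, and ages and sexes of the animals are not given in the sources used here. The replicates are library preparations described as independent, and nothing says that they came from separate animals, so that p-values measure the spread between libraries, which may be technical.

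In the germinal centre, B cells divide and mutate their antibody genes in the dark zone and are selected in the light zone, where they take up antigen and receive help from T follicular helper cells. That help reaches the B cell largely through CD40, which activates NF-kB, and acts with the antigen receptor to induce Myc, a driver of cell growth. CD69 is a surface protein that appears early after lymphocyte activation, and Bcl6 is a repressor without which the germinal centre programme is not kept up.

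Levels below are deposited values after each library was scaled to the same total, with Rn45s, a ribosomal RNA precursor, left out of that total, and changes are log2 differences (Fraction 2 minus Fraction 3) of value + 1 with their SE. This scale understates the change of genes at low level. A gene was called at a limma adjusted p under 0.05. The deposited totals were 38283 to 41955 in Fraction 2 and 27942 to 32274 in Fraction 3, a ratio of means of 1.32 (exact permutation p = 0.1, the smallest that 3 libraries against 3 can give). The number of molecules read from these totals had a ratio of 1.40, and 10104 to 10132 genes were above 0 in Fraction 2 against 9524 to 9744 in Fraction 3. After scaling, 1 molecule is worth 0.109 to 0.120 in Fraction 2 and 0.145 to 0.176 in Fraction 3, so that genes near these values are read from a few molecules. The totals therefore moved with the groups. Depth and the RNA content of the cells cannot be told apart in them, and the part of either in the results was not tested.

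At equal totals 49 genes were higher in Fraction 2 (0.438% of those tested) and 28 were lower (0.25%). The higher genes were led by Ccnd2, Batf, Arid5a and Ddt, and the lower ones by Pxdc1, Cyp4f18, Bfsp2 and Eaf2. The changes of the called genes ran from 0.44 to 2.29 in size on the higher side and from 0.45 to 1.30 on the lower side. In all 77 called genes (0.688%) the 3 values of one fraction did not overlap those of the other, a separation that 8.59% of all tested genes had in the higher direction and 8.38% in the lower direction. In bulk libraries, more cells of a kind and more RNA per cell of that kind cannot be told apart, and this holds for each gene described here. The scaling set the balance of the calls. With the values as deposited the median of all genes moved by 0.15, and 299 genes were called higher (2.67%) and 2 lower (0.0179%), so that 99.3% of the calls were on the higher side, against 63.6% at equal totals and 53.3% (24 higher, 21 lower) with median ratios. All 77 genes kept their sign as deposited, where 48 of the 49 higher genes and 2 of the 28 lower genes (Pxdc1 and Cyp4f18) were also called. Without each of the 6 libraries in turn, 11 to 26 genes were called higher and 5 to 10 lower. Called under each of these 6 omissions were Ccnd2, Batf, Arid5a, Ddt, Mif, Fscn1, Ncl, Eif5a and Birc3 on the higher side and Pxdc1, Bach2 and Cd79b on the lower side. A fit of the 6 libraries alone called 0 genes with limma, where 731 genes were higher and 683 lower at an unadjusted p under 0.05, the 77 called genes among them, and the smallest adjusted p was 0.0803.

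**Figure D1:**
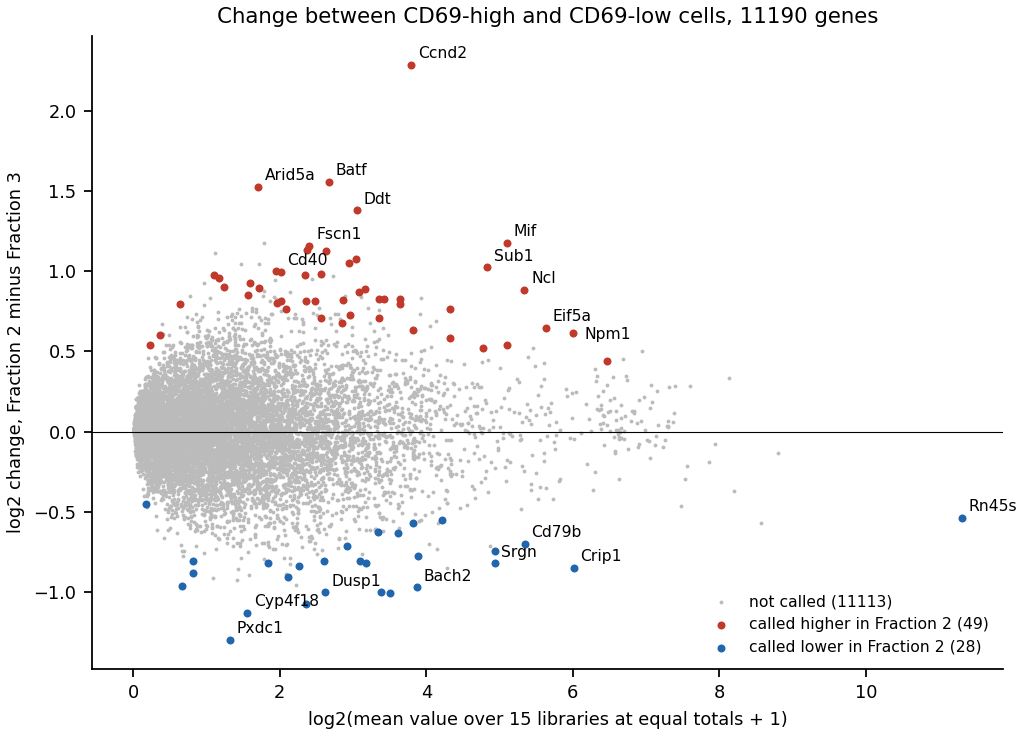
Change between Fraction 2 and Fraction 3 (vertical axis, log2 of value + 1 at equal totals) against the mean level over the 15 libraries (horizontal axis, log2 scale) for the 11190 tested genes. The 49 genes called higher (red) and the 28 called lower (blue) stand outside a cloud centred on 0, with Ccnd2 at the top at 2.29 and Pxdc1 at the bottom at -1.30.

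The gates of the fractions differed in CD69 alone, and no transcript of a sort marker was called. Cd69 was 2.29, 3.92 and 2.52 in Fraction 2 (replicates 1 to 3, the order used throughout) and 1.59, 2.45 and 2.47 in Fraction 3. These values overlap, and the change of 0.29 ± 0.36 was not called (adjusted p = 0.863), with an SE wider than the change. Bcl6 was 15, 17.8 and 13.8 against 22, 21.2 and 20.6, with no overlap but no call (-0.44 ± 0.16, adjusted p = 0.26). As deposited the change of Bcl6 was -0.04. Cd86, the costimulatory ligand that marks the light zone, was at 3.73 to 6.11 against 4.78 to 5.43 (-0.08 ± 0.22, adjusted p = 0.957). Cxcr4, the chemokine receptor that draws cells to the dark zone, was at 3.11 to 5.06 against 5.46 to 7.38, lower in each Fraction 2 library but not called (-0.67 ± 0.17, adjusted p = 0.0833). Cd38, low on germinal centre cells by the gate, was at 0.766 to 1.15 against 0.88 to 1.30 (adjusted p = 0.958). Ptprc, which encodes B220 and CD45, was at 28.5 to 29.8 against 33.4 to 39.6 (-0.34 ± 0.11, adjusted p = 0.202).

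Some genes of light zone activation, Ccnd2 and Batf among them, were called higher in the CD69-high cells, and Ccnd2 changed more than any other tested gene. Of 28 tested light zone activation genes 6 were called higher and 0 lower and 8 changes were below 0, with a median change of 0.27 beside 0.00 for all tested genes. Ccnd2, which encodes cyclin D2 and promotes entry into the cell cycle, was 4.70, 7.84 and 3.61 in Fraction 2 and 0, 0.175 and 0.704 in Fraction 3. The lowest Fraction 2 library was therefore above the highest Fraction 3 library by several times, although the Fraction 2 libraries also differed among themselves (2.29 ± 0.22, adjusted p = 1.82e-05, 2.02 to 2.50 without each library in turn). Batf, an AP-1 family factor that pairs with Jun proteins and IRF4 in activated lymphocytes, was 4.33, 3.57 and 5.25 against 0.434, 0.876 and 1.23. All 3 Fraction 2 libraries lay above all Fraction 3 libraries (1.56 ± 0.20, adjusted p = 0.000442). Irf4, the gene of the Batf partner IRF4, was 0.963, 2.08 and 1.75 against 0.145, 0.701 and 0.88, with no overlap but no call (0.73 ± 0.21, adjusted p = 0.142). Irf8 was at 33.5 to 34.0 against 30.5 to 34.3 and did not pass the test (0.08 ± 0.21, adjusted p = 0.957). Myc itself was 5.18, 4.27 and 3.94 against 1.88, 2.98 and 4.23. Its groups overlapped, since Fraction 3 replicate 3 reached the level of Fraction 2 (0.47 ± 0.23, adjusted p = 0.441). Of 12 tested genes of the Myc, Max and Mxd network 0 were called, with a median change of -0.02.

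**Figure D2:**
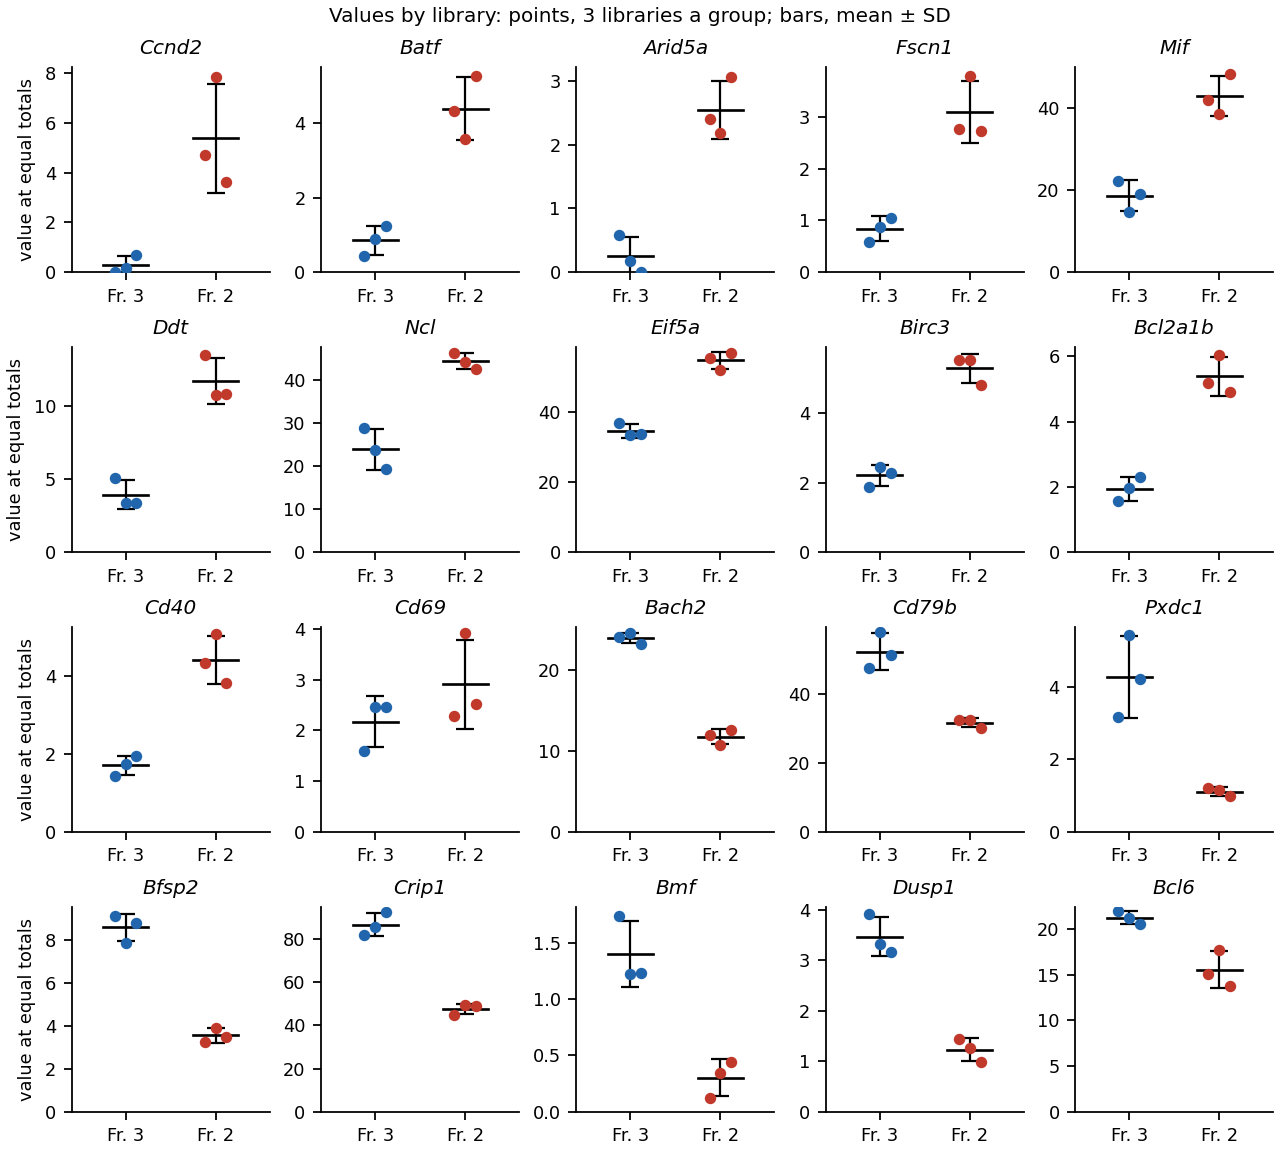
Value of 20 genes at equal totals (vertical axes, each starting at 0) in the 3 Fraction 3 libraries (blue) and the 3 Fraction 2 libraries (red), with bars for mean ± SD. In 18 of the panels the genes are called and the points do not overlap, Cd69 overlaps, and Bcl6 separates by less than the called genes.

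Some of the other genes with large increases act in RNA stability, actin bundling and transcription, while Ddt, Mif and the Bcl2a1 genes are described below. Arid5a, an RNA-binding protein that stabilizes inflammatory transcripts and is counted here among chromatin genes for its ARID domain, was 2.41, 2.19 and 3.06 against 0.579, 0.175 and 0, with every Fraction 2 library above every Fraction 3 library (1.52 ± 0.24, adjusted p = 0.00378). Fscn1, the gene of fascin, which bundles actin filaments, was 2.77, 3.81 and 2.74 against 0.579, 0.876 and 1.06 (1.16 ± 0.18, adjusted p = 0.00378). It was the only called gene of 30 tested actin and adhesion regulators, whose median change was -0.23 (-0.02 relative to all genes as deposited). Sub1, a transcriptional coactivator, was 3.13, 1.5 and 3.06 against 0.723, 0.701 and 0.704 (1.02 ± 0.17, adjusted p = 0.00553), and it lost its call without Fraction 2 replicate 1 or 3. Nfe2l1, a transcription factor that induces proteasome genes, was 2.05, 1.27 and 1.53 against 0.145, 0.175 and 0.704 (0.98 ± 0.21, adjusted p = 0.0351) and was called in 1 of the 6 omissions. None of the 37 proteasome genes was called, and their median change was 0.21. At an unadjusted limma p under 0.05, 8 of the 37 were higher and 0 lower, where 5.94% of all tested genes were higher and 5.3% lower. Counts at an unadjusted p for other lists below are to be read against these shares.

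Among genes downstream of CD40 and NF-kB, Cd40, Birc3, Bcl3 and 3 Bcl2a1 genes rose, and 4 of these, Cd40 and the Bcl2a1 genes, are shared with the light zone activation list. Of 37 tested members 6 were called higher and 0 lower, 13 were higher without overlap, 7 changes were below 0, and the median change was 0.23. Cd40, the receptor for T cell help itself, was 4.33, 5.07 and 3.83 against 1.45, 1.75 and 1.94. The lowest Fraction 2 value was above every Fraction 3 value (0.99 ± 0.20, adjusted p = 0.0224), and the call was kept in 1 of the 6 omissions, with changes of 0.91 to 1.07. Cd40 was the only called gene of 26 tested genes of T cell help and cell contact. In that list 10 changes were above 0 and 14 below, with a median of -0.03. Birc3, which encodes the NF-kB induced ubiquitin ligase cIAP2, was 5.54, 5.54 and 4.81 against 1.88, 2.45 and 2.29 (0.97 ± 0.16, adjusted p = 0.00446), and was called in all 6. Bcl3, an atypical IkB protein that acts with NF-kB p50 and p52, was 3.13, 3.23 and 4.27 against 1.30, 2.10 and 0.88 (0.93 ± 0.21, adjusted p = 0.043, called in 1 of the 6 omissions). The Bcl2a1 genes were the remaining called members.

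Bcl2a1a, Bcl2a1b and Bcl2a1d encode near-identical A1 proteins, antiapoptotic members of the Bcl2 family that NF-kB induces. Reads from one copy can be assigned to another, so that the values of single copies are uncertain. Bcl2a1b (chr9:89199209-89207827) was 5.20, 6.05 and 4.91 in Fraction 2 and 1.57, 1.96 and 2.29 in Fraction 3. Bcl2a1d (chr9:88723285-88731914) was 3.39, 5.30 and 3.54 against 1.13, 1.61 and 1.14. Bcl2a1a (chr9:88956900-88962419) was 2.01, 2.94 and 2.17 against 0.627, 0.993 and 0.792. In each copy the fractions were fully separated, with changes of 1.12 ± 0.19, 1.13 ± 0.20 and 0.90 ± 0.19 (adjusted p = 0.0056, 0.00742 and 0.0339). Bcl2a1b and Bcl2a1d lost their calls without Fraction 2 replicate 2, and Bcl2a1a without any 1 of the 6 libraries (changes of 0.78 to 0.98). Gm2382, 9330159M07Rik, Trim43b and Mthfs, the other tested genes within 300000 bases of Bcl2a1a, changed by -0.03 to 0.12, and none was called. The promoters of the 3 copies are shown because the copies changed together and share a match to TGANTCA, a loose form of the AP-1 site. Batf, Bach2 and Fos-Jun dimers bind TGACTCA and TGAGTCA. The match in the 3 copies reads TGAATCA, which is neither of these. The lines give, from RefSeq on GRCm38.p6, the match (in capitals) with 30 bases on each side, at chr9:88956770-88956836 on the plus strand for Bcl2a1a, chr9:89199079-89199145 on the plus strand for Bcl2a1b and chr9:88731928-88731994 on the minus strand for Bcl2a1d.
Bcl2a1a: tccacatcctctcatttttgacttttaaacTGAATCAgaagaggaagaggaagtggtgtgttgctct
Bcl2a1b: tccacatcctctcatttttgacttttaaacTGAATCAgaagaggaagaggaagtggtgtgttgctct
Bcl2a1d: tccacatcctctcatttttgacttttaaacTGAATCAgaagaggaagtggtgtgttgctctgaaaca
The windows of Bcl2a1a and Bcl2a1b are identical in all 67 bases, and that of Bcl2a1d departs from them only after the match. The matches begin 120, 164 and 114 bases before the RefSeq start of the gene.

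Within the Bcl2 family the antiapoptotic A1 genes rose and a proapoptotic gene fell. Of 19 tested members 3 were called higher and 1 lower, with a median change of 0.03. Bmf, a BH3-only protein that promotes cell death, was 0.12, 0.346 and 0.438 in Fraction 2 and 1.74, 1.23 and 1.23 in Fraction 3. The highest Fraction 2 value lay below the lowest Fraction 3 value (-0.88 ± 0.19, adjusted p = 0.0339), but these are values of a few molecules each. The call of Bmf was lost without any 1 of the 6 libraries (changes of -0.96 to -0.78), and it was not called as deposited (-0.65, adjusted p = 0.121).

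Genes of ribosome biogenesis had the highest median change of the lists of growth. Of 40 tested nucleolar ribosome biogenesis genes 7 were called higher and 0 lower, 28 were higher without overlap, and all 40 changes were above 0. Their median change was 0.61, and 0.75 above that of all genes on the deposited scale. Summed over the list, the values were 299 to 324 in Fraction 2 against 179 to 207 in Fraction 3. Ncl, which encodes nucleolin, a protein of rRNA transcription and processing, was 46.2, 44.2 and 42.6 against 28.8, 23.7 and 19.2 (0.88 ± 0.14, adjusted p = 0.00386). Each Fraction 2 library was above each Fraction 3 library, and Ncl was called without each of the 6 libraries in turn. Heatr1, needed for transcription of ribosomal DNA, was 3.25, 3.23 and 3.72 against 0.868, 1.75 and 1.06 (1.00 ± 0.19, adjusted p = 0.0148). Ddx21, an RNA helicase of the nucleolus, was 11.7, 11.4 and 14.7 against 7.96, 5.43 and 7.22 (0.79 ± 0.15, adjusted p = 0.0128). Dkc1, the pseudouridine synthase dyskerin, was at 10.2 in all 3 Fraction 2 libraries and at 4.40 to 6.38 in Fraction 3 (0.83 ± 0.17, adjusted p = 0.0248). Npm1, the abundant nucleolar chaperone nucleophosmin, was 77.5, 66.7 and 71.7 against 53.8, 40.1 and 46.5 (0.62 ± 0.13, adjusted p = 0.0267). The other called members, Pes1 and Ppan, act in maturation of the large ribosomal subunit and changed by 0.76 and 0.81. Apart from Ncl, these 6 genes lost their calls in 2 to 6 of the 6 omissions. Rn45s, the rRNA precursor itself, fell, from 2205 to 2599 in Fraction 3 to 1322 to 1814 in Fraction 2 (-0.54 ± 0.12, adjusted p = 0.0414), but its change as deposited was -0.11 (adjusted p = 0.885). Libraries were primed with oligo(dT), so that Rn45s is not a direct measure of rRNA.

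Some targets of Myc outside the nucleolus were also called higher, although Myc itself was not called. Of 32 tested members 6 were called higher and 0 lower, 22 were higher without overlap, and the median change was 0.50. Srm, the spermidine synthase of polyamine production, was 5.90, 5.30 and 5.03 in Fraction 2 and 1.45, 1.75 and 3.17 in Fraction 3 (1.07 ± 0.24, adjusted p = 0.0379). Prmt1, the main protein arginine methyltransferase, was 5.66, 6.92 and 7.00 against 2.89, 3.15 and 1.94 (1.05 ± 0.22, adjusted p = 0.0301). Both genes separated the fractions in every library, but Srm was called in 1 of the 6 omissions and Prmt1 in 0. C1qbp, a mitochondrial matrix protein, was 13.1, 10.6 and 12.3 against 6.66, 5.61 and 6.69 (0.83 ± 0.16, adjusted p = 0.0162). Nme1 and Nme2, nucleoside diphosphate kinases with adjacent genes on chromosome 11, changed by 0.58 ± 0.13 and 0.54 ± 0.12 (adjusted p = 0.0491 and 0.0414) and can share reads. Hspe1, the small subunit of the mitochondrial chaperonin, was at 21.3 to 24.2 against 11 to 14.8 (0.76 ± 0.15, adjusted p = 0.0211). The Hsp70 family member Hspa9 of the mitochondrion was at 8.65 to 11 against 4.20 to 5.64 (0.89 ± 0.19, adjusted p = 0.034). These were the 2 called genes of 23 chaperonin TRiC and heat shock genes, of which 19 were higher without overlap and whose median change was 0.33.

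Fewer genes were called among translation factors and structural proteins of the ribosome. Of 26 translation initiation and elongation factors 2 were called higher and 0 lower, with a median change of 0.41. Eif5a, the elongation factor that carries the polyamine-derived amino acid hypusine, was 55.4, 51.9 and 56.7 in Fraction 2 and 36.9, 33.2 and 33.7 in Fraction 3. The SD within a fraction was 2.48 and 2.00, well under the gap between the fractions (0.64 ± 0.10, adjusted p = 0.00378, called in all 6 omissions). Eif5a and Srm were the 2 called genes of 11 tested polyamine and hypusine enzymes. In that list 5 changes were above 0 and 6 below, with a median of -0.01. Eif2s2, the beta subunit of initiation factor eIF2, was at 24.1 to 25.3 against 15.1 to 20.1 (0.52 ± 0.11, adjusted p = 0.034, called in 1 of the 6). Of 65 cytosolic ribosomal protein genes Rpl38 alone was called (0.44 ± 0.10, adjusted p = 0.043, in 0 of the 6 omissions), and the median change was 0.08. In this list 14 genes were higher and 0 lower at an unadjusted limma p under 0.05. None of 56 mitochondrial ribosomal protein genes was called, with a median change of 0.15. At an unadjusted limma p under 0.05, 10 of them were higher and 0 lower, among them Mrps18b, at 2.41 to 3.23 against 0.701 to 1.59 (adjusted p = 0.189).

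Few metabolic genes were called. Of 29 nucleotide and one-carbon synthesis genes Shmt2, the mitochondrial serine hydroxymethyltransferase that feeds one-carbon units, was called. It was 8.79, 11.4 and 8.97 in Fraction 2 and 6.51, 4.73 and 5.46 in Fraction 3 (0.71 ± 0.15, adjusted p = 0.0286, in 1 of the 6 omissions), and the median change of the list was 0.32. Of 67 respiratory chain and ATP synthase genes 2 were called, Ndufb6 of complex I (0.71 ± 0.16, adjusted p = 0.0491) and Atp5g1, a c subunit of ATP synthase (0.63 ± 0.15, adjusted p = 0.0493). Both p-values lie close to the threshold, and the median of that list was 0.13 (14 higher and 2 lower at an unadjusted limma p under 0.05). Of 21 glycolysis genes 0 were called (6 higher and 1 lower at an unadjusted limma p under 0.05), with a median of 0.21. Ldha, lactate dehydrogenase A, was 35, 32.9 and 38.0 against 25.5, 25.4 and 25.9, separated in every library yet not called (0.45 ± 0.11, adjusted p = 0.0785). Tpi1, the triose phosphate isomerase, was at 12.1 to 14.3 against 8.59 to 8.80 (0.58 ± 0.17, adjusted p = 0.13). Of 23 aminoacyl tRNA synthetases 0 were called (7 higher and 0 lower unadjusted), with a median of 0.26, and Nars was at 5.65 to 8.19 against 3.15 to 5.21 (0.77 ± 0.19, adjusted p = 0.0605). Cholesterol synthesis had 0 calls of 28 genes (0 higher and 3 lower unadjusted) and a median of -0.12 (-0.06 relative to all genes as deposited).

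**Figure D3:**
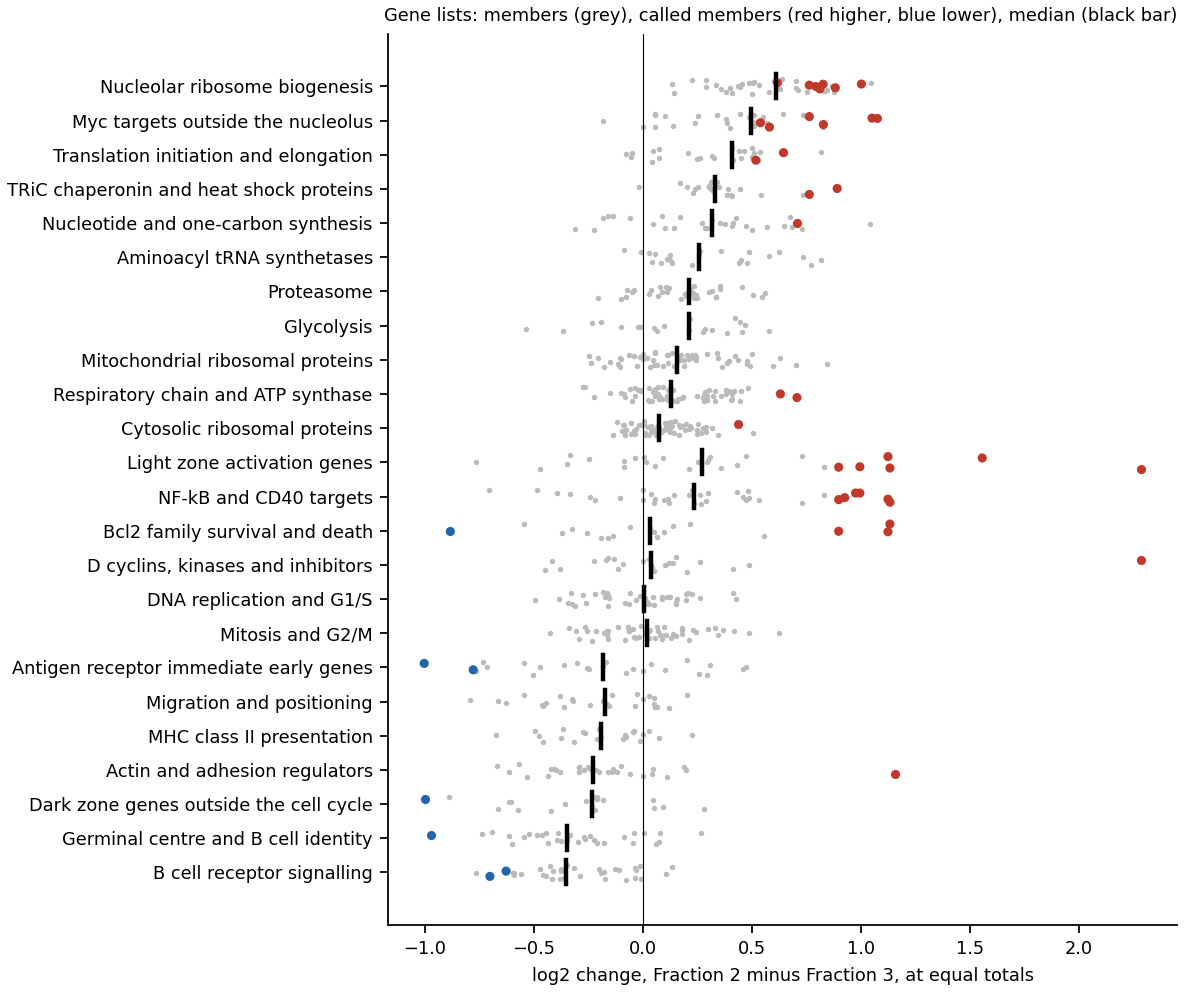
Change of each tested gene of 24 lists (points, log2 of value + 1 at equal totals, Fraction 2 minus Fraction 3), with called genes in red (higher) or blue (lower) and the list median as a black bar. Lists of growth lie to the right, led by nucleolar ribosome biogenesis at 0.61, cell cycle lists are centred near 0, and B cell receptor signalling and B cell identity lie to the left at -0.35.

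Mif and Ddt, related cytokine-like tautomerases that act on cells through CD74, rose together with another gene of their neighbourhood. Ddt (chr10:75771230-75773414) was 13.5, 10.7 and 10.8 in Fraction 2 and 5.06, 3.33 and 3.35 in Fraction 3 (1.38 ± 0.18, adjusted p = 0.000442). Mif (chr10:75859353-75860240) was 42.1, 38.6 and 48.4 against 22.3, 14.7 and 19.0 (1.18 ± 0.17, adjusted p = 0.00128). Neither gene overlapped between the fractions, and both were called without each of the 6 libraries in turn. Gstt2 (chr10:75831114-75837424), a theta class glutathione transferase between them, was 5.54, 6.69 and 7.66 against 3.91, 3.15 and 1.76 (0.98 ± 0.23, adjusted p = 0.0491), and was called in 1 of the 6. Gstt1 and Gstt3, which also lie between Ddt and Mif, changed by 0.38 ± 0.31 and 0.32 ± 0.25 and were not called. Beyond Mif, Derl3 changed by 0.65 ± 0.20 (adjusted p = 0.178), and Smarcb1, Chchd10 and Vpreb3 by -0.31, -0.44 and -0.57, none of them called. Higher calls were thus interleaved with uncalled genes over this stretch. Elsewhere on chromosome 10, Srgn and Ddx21 are next to each other among tested genes and were called in opposite directions (-0.82 ± 0.14 and 0.79 ± 0.15).

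**Figure D4:**
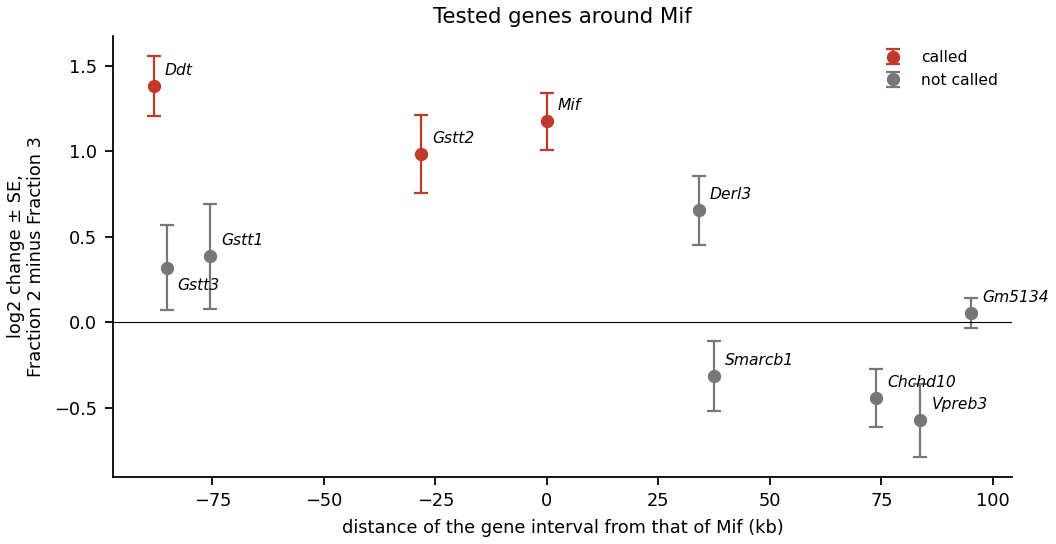
Change ± SE of the tested genes within 100 kb of Mif on chromosome 10 (vertical axis, log2 of value + 1, Fraction 2 minus Fraction 3) against the distance of the start of each gene interval from that of Mif (horizontal axis, kb). Ddt, Gstt2 and Mif are called (red) at 1.38, 0.98 and 1.18, while Gstt1 and Gstt3 between them and all genes beyond Mif are not (grey).

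The sequence upstream of Ddt, the called gene of this stretch with the largest change, is shown with that of Prmt1 because both hold CACGTG, the E-box to which Myc and Max bind. The lines give the match in capitals with 30 bases on each side, from RefSeq on GRCm38.p6, at chr10:75773508-75773573 for Ddt and chr7:44986566-44986631 for Prmt1, both on the minus strand.
Ddt: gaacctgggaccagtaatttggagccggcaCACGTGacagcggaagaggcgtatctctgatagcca
Prmt1: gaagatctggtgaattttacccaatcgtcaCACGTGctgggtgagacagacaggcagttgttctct
The matches begin 169 and 181 bases before the RefSeq start of each gene. In the 250 bases before the start, searched on both strands, the E-box was found in 6 of the 40 higher genes with a promoter in the RefSeq table (15%, Atp5g1, Ddt, Eif5a, Nme1, Prmt1 and Sub1), in 2 of 21 lower genes (9.52%, Dusp1 and Hmha1) and in 10.1% of the promoters of all tested genes. The loose AP-1 pattern TGANTCA was found in 6 of 40 higher genes (15%), 1 of 21 lower genes (4.76%, Bfsp2) and 5.04% of all. Of its 6 higher genes 3 are the Bcl2a1 copies, which share this sequence, and the others are Aprt, C1qbp and Nme1. These 3 alone among the higher genes held TGACTCA or TGAGTCA (7.5% of 40), against 0 of 21 lower genes and 3.63% of all, a search added after the matches were seen. The kappaB consensus was found in 6 of 40 higher genes (15%), 3 of 21 lower genes (14.3%) and 10.3% of all. Among the higher genes with it were Dkc1, Hspe1 and Prmt1, and none of Cd40, Birc3, Bcl3 or the Bcl2a1 copies was. These matches are descriptions of letters in this window.

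Of the B cell receptor signalling genes, Cd79b and Cd81 were called lower in the CD69-high cells at equal totals. Of 34 tested members 2 were called lower and 0 higher, 18 were lower without overlap, 32 changes were below 0, and the median change was -0.35. As deposited that median was 0.02, which is 0.14 below the median of all genes, so the direction in absolute terms depends on the scaling. Cd79b, a signalling chain of the antigen receptor, was 32.6, 32.4 and 30.3 in Fraction 2 and 47.6, 58.2 and 51.6 in Fraction 3. Fraction 2 varied little, and all its libraries lay below all Fraction 3 libraries (-0.70 ± 0.10, adjusted p = 0.000881, called in all 6 omissions, -0.29 with adjusted p = 0.202 as deposited). Cd81, a tetraspanin of the B cell surface, was 5.66, 5.54 and 6.78 against 8.54, 9.99 and 10.9 (-0.63 ± 0.13, adjusted p = 0.0301), and it was called in 1 of the 6 omissions.

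Among genes of germinal centre and B cell identity, Bach2 was called lower, and most other members had negative changes without a call. Of 33 tested members 1 was called lower and 0 higher, 16 were lower without overlap, and the median was -0.35, against 0.02 as deposited. Bach2, a repressor that holds back plasma cell differentiation, was 11.9, 10.7 and 12.6 in Fraction 2 and 24.0, 24.5 and 23.2 in Fraction 3. The fractions were far apart relative to the spread within each (-0.97 ± 0.12, adjusted p = 0.000442, -1.02 to -0.91 without each library in turn), and the change as deposited was -0.57 (adjusted p = 0.0529). S1pr2, which keeps B cells inside the germinal centre, was at 10.03 to 11.7 against 13.9 to 17.8 (-0.46 ± 0.19, adjusted p = 0.347). Foxo1, a factor of the dark zone programme, was at 6.46 to 8.79 against 7.96 to 10.2 and overlapped (adjusted p = 0.718). Pax5 was read from very few molecules, at 0.109 to 0.231 against 0 to 0.352.

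Of 29 tested plasma cell genes 1 was called lower and 0 higher (4 higher and 5 lower at an unadjusted limma p under 0.05), and the median change was 0.00. Prdm1, the factor that drives plasma cell differentiation, was listed at 0 in 5 of the 6 libraries and at 0.12 in Fraction 2 replicate 1. Xbp1, the driver of the secretory programme, was at 3.81 to 6.74 against 5.46 to 6.83 (adjusted p = 0.88). The called gene was Eaf2, a partner of the ELL elongation factors, at 4.70, 2.31 and 4.27 against 8.97, 7.53 and 8.45 (-1.01 ± 0.20, adjusted p = 0.0245, called in 1 of the 6 omissions).

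Dark zone genes, and genes that antigen receptor signals induce at once, also had medians below 0. Of 19 tested dark zone genes outside the cell cycle 1 was called lower and 0 higher, and the median was -0.23 (-0.03 as deposited). That gene was 8430410A17Rik, now named Hmces, a sensor of abasic DNA sites, at 5.90, 5.54 and 6.35 in Fraction 2 and 16.5, 12.4 and 10.2 in Fraction 3. Every Fraction 2 value was below every Fraction 3 value (-0.998 ± 0.18, adjusted p = 0.00837), and the call was kept in 3 of the 6 omissions. Of 25 tested immediate early genes 2 were called lower and 0 higher, with a median of -0.18 (0.00 as deposited). Dusp1, a phosphatase that ends MAP kinase signals, was 1.44, 1.27 and 0.985 against 3.91, 3.33 and 3.17 (-1.003 ± 0.22, adjusted p = 0.034). Zfp36, which destabilizes cytokine transcripts, was 7.70, 9.46 and 6.57 against 13.9, 13.1 and 15.5 (-0.78 ± 0.17, adjusted p = 0.0417). Both genes were separated in every library, both lost their calls without any 1 of the 6 libraries, and neither was called as deposited.

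Several of the lower genes with the largest changes belong to no list used here. Pxdc1, a PX domain protein, was 1.2, 1.15 and 0.985 in Fraction 2 and 3.18, 5.43 and 4.23 in Fraction 3 (-1.30 ± 0.20, adjusted p = 0.00378), and was called in all 6 omissions. Cyp4f18, a fatty acid hydroxylase, was 0.602, 0.692 and 0.766 against 2.17, 3.33 and 2.64 (-1.13 ± 0.20, adjusted p = 0.0102), and was called in 3 of the 6. These 2 genes were the only ones called lower as deposited. Bfsp2, an intermediate filament protein, was 3.25, 3.92 and 3.50 against 9.12, 7.88 and 8.80 (-1.08 ± 0.20, adjusted p = 0.0128). Crip1, a small LIM domain protein, was 44.7, 49.2 and 48.7 against 81.8, 85.3 and 92.3 (-0.85 ± 0.17, adjusted p = 0.025). Serpinb6b, a serpin, was 0.482, 0.692 and 0.109 against 1.74, 2.37 and 1.23 (-0.96 ± 0.19, adjusted p = 0.0233). In all of these the fractions did not overlap. Srgn, which encodes the granule proteoglycan serglycin, was at 14.0 to 15.6 against 24.9 to 28.6 (-0.82 ± 0.14, adjusted p = 0.0057), and lost its call without Fraction 2 replicate 1 alone. Actin-linked genes also appeared here: Gsn, the actin-severing protein gelsolin, at 2.29 to 3.39 against 5.08 to 6.16, and Lpp, a focal adhesion protein, at 6.02 to 9.46 against 12.4 to 15.7 (both adjusted p = 0.034). Tmem64 and Man2a1, a Golgi mannosidase, completed the 15 lower genes named by size, at -0.91 and -0.84. Called genes outside the rule for naming and chosen after their values were seen were Mtss1, a membrane-bending regulator of actin, and Mbd2, a reader of methylated DNA, at -0.72 and -0.55. Mll1, now named Kmt2a, a histone H3 lysine 4 methyltransferase, was at 9.30 to 11.2 against 15.5 to 18.8 (-0.63 ± 0.13, adjusted p = 0.0339). It was the lower call of 44 histone and chromatin modifiers beside the higher call of Arid5a, with a median of -0.02.

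Among cell division genes Ccnd2 alone was called. Of 41 DNA replication and G1/S genes and 54 mitosis and G2/M genes 0 were called, with medians of 0.01 and 0.02. At an unadjusted limma p under 0.05 the replication list had 0 higher and 1 lower and the mitosis list 2 higher and 1 lower. Summed over the mitosis list the values were 389.7 to 391.7 in Fraction 2 and 377 to 406 in Fraction 3, and over the replication list 236 to 260 and 233 to 273. Mki67, a mark of cycling cells, was at 30.1 to 32.3 against 32.1 to 37.5 (adjusted p = 0.772). Ccnd3, the D cyclin of the dark zone programme, was 17.8, 18.7 and 16.4 against 19.2, 19.4 and 20.8 (-0.16 ± 0.15, adjusted p = 0.787). Ccnd2 was thus the only called gene among 23 tested D cyclins, kinases and inhibitors, whose median was 0.04. Among 26 migration and positioning genes 0 were called (0 higher and 9 lower at an unadjusted p under 0.05), with a median of -0.18, or -0.12 relative to all genes as deposited. Gnai2, the G protein of chemokine receptors, had the smallest p there, at 21.8 to 25 against 30.7 to 36.1 (-0.46 ± 0.11, adjusted p = 0.0641). Of 23 genes of MHC class II presentation 0 were called (0 higher and 5 lower unadjusted), with a median of -0.19 and summed values of 714 to 743 against 781 to 905. H2-Ob, a chain of the peptide exchange inhibitor H2-O, was at 11.8 to 16 against 17.5 to 22.4 (-0.48 ± 0.15, adjusted p = 0.169). As deposited the median of the class II list was 0.12, so that its direction turned with the scaling. The interferon response list had 1 lower call of 34, Ifi27l2a, at 9.74 to 12.2 against 16.6 to 24.1 (-0.75 ± 0.14, adjusted p = 0.0148). Of 27 p53 pathway genes, 40 unfolded protein response genes and 31 autophagy genes 0 were called, with medians of 0.02, 0.09 and -0.02. At an unadjusted p under 0.05, 1, 10 and 1 of them were higher and 5, 3 and 0 lower, beside 5.94% and 5.3% of all tested genes.

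The other groups were used to see where the called genes stood, as a description with no test. Fraction 1 and GC-PB libraries had values in steps of 0.305 to 0.362 as deposited and the other 9 libraries in steps of 0.105 to 0.139. The same divide showed in sex-linked transcripts. Xist, expressed from the inactive X chromosome, was listed at 0 in those 9 libraries and read at 8.94 to 14.4 in the 6 others, and Ddx3y, on the Y chromosome, was at 3.91 to 6.21 in the 9 and at 0 to 0.0406 in the 6. In levels set across this divide, library and animal differences cannot be told apart from the cell type, and this holds for each comparison with Fraction 1 or GC-PB below. Fractions 2 and 3 and the dark zone libraries lie on the same side of it. Of the 49 higher genes, 46 had all Fraction 1 libraries above all dark zone libraries, where 16.0% of tested genes did. In 44 the mean was higher in Fraction 1 than in Fraction 2. The 49 had a median level over the 15 libraries of 6.21, against 0.963 for all tested genes. The fit that called them also held the Fraction 1 and dark zone libraries. The 46 of 49 and the 16.0% are therefore not shares of like genes. Most of the 49 did not separate Fraction 3 from the dark zone. Fraction 3 was above it without overlap in 10, below it in 7 and overlapping in 32, against 881, 720 and 9589 of all 11190 tested genes. Ccnd2 had means of 0.0152 in DZ, 0.293 in Fraction 3, 5.38 in Fraction 2, 30.7 in Fraction 1 and 28.1 in GC-PB. Batf took the same order up to Fraction 1 (0.249, 0.848, 4.39 and 20.9) but was at 0.359 in GC-PB. Fscn1 went from 0.303 and 0.837 to 3.10 and 16.7, and was at 0.556 in GC-PB. Mean levels of Ccnd2, Batf and Fscn1 were therefore intermediate in Fraction 2 and highest in Fraction 1 among the germinal centre groups. The exceptions among higher genes were Dph5, Lrrc61 and M1ap, low genes whose Fraction 1 values were not above the dark zone without overlap. M1ap was at 0.361 to 0.547 in Fraction 2 and listed at 0 in all 3 Fraction 3 libraries. Gatm, the first enzyme of creatine synthesis, and M1ap were above all 12 other libraries in Fraction 2 (4.08% of the 49), as were 34 of all tested genes (0.304%). Eif2s2 and Nol6 were below all 12 other libraries in Fraction 3, as were 25 of all tested genes. By these patterns the 34 and the 25 all lie among the 961 tested genes that were higher in Fraction 2 without overlap. All 49 called genes do so too, so that these shares are not of like genes. Gatm had means of 1.88 in DZ, 5.08 in Fraction 3, 9.60 in Fraction 2, 6.18 in Fraction 1 and 0.0657 in GC-PB.

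Of the 28 lower genes, 25 had all Fraction 1 libraries below all dark zone libraries (20.3% of tested genes did), and 25 had a lower mean in Fraction 1 than in Fraction 2. The 28 had a median level over the 15 libraries of 7.80, against 0.963 for all tested genes. They were called in the same fit, so the 25 of 28 and the 20.3% are not shares of like genes either. Bach2 had means of 26.7 in DZ, 23.9 in Fraction 3, 11.7 in Fraction 2, 5.90 in Fraction 1 and 0.143 in GC-PB. Hmces had means of 22.7, 13, 5.93 and 0.976 in the same order up to Fraction 1, and of 4.62 in GC-PB. A different pattern was seen in 7 of the 28 (25%), among them Bmf, Gsn, Mtss1, Pxdc1, Serpinb6b and Ttl. These were higher in each Fraction 3 library than in all 12 other libraries, dark zone included, as were 148 of all tested genes (1.32%). By this pattern the 148 all lie among the 938 tested genes that were lower in Fraction 2 without overlap, as do all 28 called genes. The 25% and the 1.32% are therefore not shares of like genes. Pxdc1 had means of 1.67 in DZ, 4.28 in Fraction 3, 1.11 in Fraction 2 and 0.075 in Fraction 1. Fraction 3 was thus not always next to the dark zone in level. Srgn was the lower gene with Fraction 2 below all other libraries, at a mean of 14.7 against 26.8 in Fraction 3, 28.7 in DZ, 35 in Fraction 1 and 42.5 in GC-PB. Since the genes were picked from Fraction 2 against Fraction 3, the separation of those 2 fractions in these patterns is fixed by the choice.

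**Figure D5:**
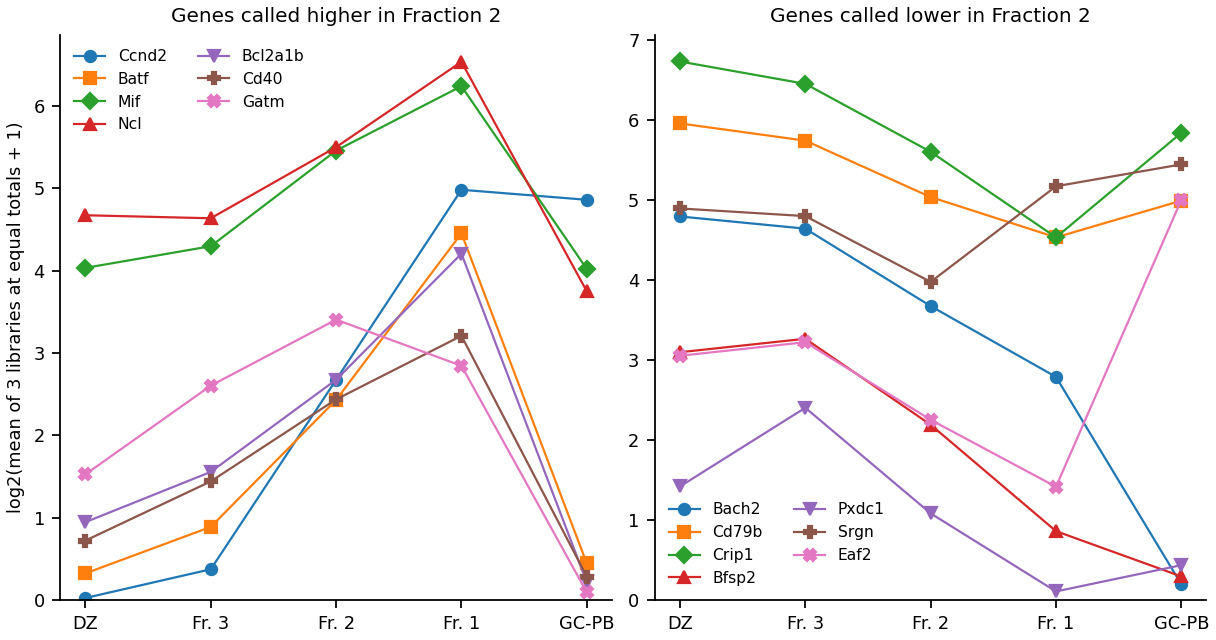
Mean level at equal totals (vertical axes, log2 of the mean of 3 libraries + 1) of 7 genes called higher (left) and 7 called lower (right) in the 5 groups; lines join the points of a gene and show no course in time. Most of the higher genes shown climb from DZ to Fraction 1, but Ncl is not higher in Fraction 3 (23.9 before the log) than in DZ (24.5). Gatm peaks in Fraction 2 at 9.60 before the log, while Pxdc1 peaks in Fraction 3 and Srgn is lowest in Fraction 2.

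The libraries were checked for markers of other cells that the sort could hold. Of the 21 T cell and follicular helper genes listed, 12 were at 0 in all 6 libraries, among them Cd3d, Cd3e, Cd4, Cd28, Il21 and Cd40lg. The list summed to 6.62 to 7.73 in Fraction 2 and 5.50 to 8.06 in Fraction 3, most of it from Lck and Cd2. Of 24 macrophage and dendritic cell genes 16 were at 0 in all 6 libraries, among them Csf1r, Itgam, C1qa, C1qb, C1qc and Tyrobp. The sums were 8.06 to 9.34 against 9.94 to 14.1, lower in Fraction 2, most of them from Cst3 and Flt3. Of 19 stromal and follicular dendritic cell genes 15 were at 0, Cxcl13, Col1a1, Pdpn and Ccl19 among them, with sums of 0.602 to 1.27 against 0.876 to 1.30. The naive follicular B cell list summed to 23.1 to 25.5 against 29.3 to 34.9, and the dark zone list to 79.9 to 94.1 against 109 to 129, both lower in Fraction 2. The memory B cell list summed to 20.8 to 22.7 against 34.5 to 37.0, also lower in Fraction 2 without overlap. Its called member is Bach2, and without Bach2 the sums were 10.03 to 10.6 against 11.3 to 13. The part of naive, memory and dark zone cells in the called genes was not tested. Of 10 red cell and platelet genes 6 were at 0 in all 6 libraries, and the list summed to 7.92 in Fraction 3 replicate 3 and to 1.97 to 3.34 in the other 5 libraries, most of it from Hbb-b2. Without that library 24 genes were called higher and 10 lower. B cell and germinal centre genes such as Cd79b and Bcl6 were present in all 6 libraries.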

How the data were processed

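Values were the authors' deposited signal per gene for 15 libraries of 100 cells (day 12). Per the labels' protocols, a known number of ERCC molecules was added to each tube and cDNA carried molecular barcodes; per the submitters' processing notes, TopHat2 and mm10 were used (version not given in the sources used here). The unit of the signal is not stated. It was read here as molecules times a constant per library: 91.0% to 92.6% of values above 0 were whole multiples of the most frequent value within 0.02 of it, too few to recover counts. Molecules per library were 231687 to 368603 in the 6 libraries compared, and depth limits genes near 1 molecule.

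Groups and replicate numbers came from sample titles. Values were scaled to a total of 38594 without Rn45s, the median over libraries, and log2(value + 1) entered a limma 3.58.1 fit (R 4.3.3) of 5 group means with a trend on intensity and Benjamini-Hochberg adjustment over 11190 genes above 0 in at least 3 libraries. The fit was tested on simulated data. Library totals were compared by a two-sided exact permutation test. The genes, 41 lists and tests were chosen with earlier results of these data known. Named were the 15 higher and 15 lower called genes of largest change without overlap whose higher group averaged 0.963 or more, up to 4 called members per list (otherwise the 2 of smallest p), and 20 fixed regulators, of which 1 is not reported here, nor is 1 called gene; other called genes in the text, such as Bcl3, Npm1, Pes1, Ppan, Nme1, Nme2, Rn45s, Mtss1, Mbd2, Gatm and M1ap, the neighbours of Mif, Bcl2a1a and Ddx21, and Xist, Ddx3y and Hbb-b2 were chosen after their values were seen. GENCODE M21 placed 99 of 101 named genes, and 23 table symbols were matched through older names. Sequences came from RefSeq (GRCm38.p6), and motifs were searched in 250 bases. Python 3.11.15 and matplotlib 3.10.9 drew the figures. Alternatives were other scalings, pseudocounts of 0.25 and 4, other filters, fits of 6 or 9 libraries, no trend, a replicate block and leaving out each library.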

Additional observations from a re-analysis of the deposited data

How the results depend on the processing

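The counts of genes called higher and lower (49 and 28) depended on the scaling, the pseudocount and the libraries in the fit. They were 299 and 2 with values as deposited, 24 and 21 with median-of-ratios scaling, 30 and 17 with a pseudocount of 0.25 and 59 and 48 with a pseudocount of 4. In the fit of the 6 libraries they were 0 and 0, with fewer total degrees of freedom (5.88 against 20.3). The fit of 9 libraries with DZ gave 31 and 29, of which 20 and 17 were among the 49 and 28. Leaving out 1 library gave 11 to 26 higher and 5 to 10 lower genes, from fewer libraries. Both counts stayed within 1.5 times with Rn45s kept in the total (59 and 29), no filter (34 and 23), a filter of 6 libraries (61 and 32) and no trend (37 and 20). With the replicate number as a block, 24 genes were higher and 16 lower, all called without it. Deviations of same-numbered libraries had correlations of -0.03 to 0.02, and not every library correlated best with its own number. These correlations span all tested genes, many read from a few molecules, so they do not settle whether the numbers pair the libraries. None of the 49 called genes named by the rule reversed its sign in any of these settings. As deposited 31 of them kept their call, with median ratios 37, with the block 34 and without single libraries 17 to 28. In the fit of 9 libraries 28 kept it, and in the fit of 6 libraries 0 did. The ratio of library totals was 1.26 to 1.35 without single libraries and 1.40 in molecules. The cause of these differences was not tested. Depth limits genes of a few molecules, such as M1ap, Lrrc61, Pyurf, Ttl and Bmf, and the scaling limits every statement that a gene or list was lower.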

Other observations

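Higher genes not described above, chosen after their values were seen, have roles in mitochondrial import, nucleotide salvage and RNA modification. Timm23, the channel of the inner membrane translocase, was 8.19, 7.73 and 7.99 in Fraction 2 and 4.92, 4.73 and 3.70 in Fraction 3 (0.73 ± 0.16, limma adjusted p = 0.034). Aprt, which salvages adenine, was at 4.38 to 4.70 against 1.58 to 2.63 (0.81 ± 0.18, adjusted p = 0.0414). Pus7, a pseudouridine synthase, was at 1.98 to 2.27 against 0.308 to 1.06 (0.85 ± 0.19, adjusted p = 0.038), and Dph5, an enzyme of diphthamide synthesis on elongation factor 2, at 1.48 to 2.23 against 0.366 to 0.728 (0.90 ± 0.21, adjusted p = 0.0499). The fractions were separated in each of these genes, but they kept their calls in at most 1 of the 6 omissions of a single library.

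Banf1, a chromatin protein that binds DNA to the nuclear envelope, was 13.2, 11.9 and 13.3 in Fraction 2 and 6.95, 5.26 and 8.45 in Fraction 3 (0.83 ± 0.14, adjusted p = 0.00821), and was called in 3 of the 6 omissions. Sub1, already named above, had a mean of 124 in GC-PB against 2.56 in Fraction 2 and 9.77 in Fraction 1. Eaf2, which fell, had a mean of 31.0 in GC-PB against 3.76 in Fraction 2 and 8.32 in Fraction 3. Of the called genes whose changes are given nowhere else, Nol6, a nucleolar protein, changed by 0.96, Pebp1, Csda, Zfp362, Pyurf, Rsl1d1 and Lrrc61 by 0.60 to 0.87, and Usp2, Hmha1, Pitpnc1 and Ttl by -0.81 to -0.45.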
